A study of Mus musculus with 45 samples.

Results

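The circadian clock genes described here were given as a list of 10 gene symbols: Arntl, Clock, Npas2, Per1, Per2, Per3, Cry1, Nr1d1, Nr1d2 and Dbp. All 10 were found among 24946 usable genes of the table, and 9 of them, all but Npas2, passed the filter of 0.5 TPM on the mean over libraries, as did 11244 genes in all. TPM is transcript abundance scaled by transcript length to a fixed total in each library. RNA from liver lysate of wild-type mice was sequenced in bulk. The mice received Lieber-DeCarli liquid diet, in which all nutrients come from a liquid, as a model of injury by alcohol. Peak injury (16 libraries) was reached after 6 weeks on either control or ethanol diet. Early resolution (15 libraries) came after 3 more days and late resolution (14 libraries) after 2 more weeks, in which mice that had received ethanol were given control diet. The labels do not say what control-labelled mice ate in that time. Each stage was split by a control or ethanol label and a female or male label into 4 groups. Of the 12 groups, 9 had 4 libraries and 3 had 3 libraries (early resolution ethanol females, late resolution ethanol females and late resolution ethanol males). The sources used here do not give strain, age, hour of collection or feeding schedule.

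The molecular clock is a feedback loop that runs in nearly every cell. ARNTL (BMAL1) pairs with CLOCK or NPAS2 and activates, through E-box sequences, the Per, Cry and Nr1d genes and Dbp. PER and CRY proteins then inhibit that pair, the nuclear receptors NR1D1 and NR1D2 (REV-ERB) repress Arntl, Clock and Npas2 through RORE sequences, and DBP activates genes such as Per3 through D-box sequences. In liver of mice that eat at night, Arntl, Npas2 and Clock are high around the end of the night, Nr1d1, Nr1d2, Dbp and Per3 are high in the course of the day, Per1 and Per2 are high around dusk, and Cry1 is high late in the night. Feeding time sets the phase of the liver clock.

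Promoter sequences from RefSeq (GRCm38.p6) matched 9 of the 10 genes, all but Per2. In the 250 bases before each start, 3 elements were searched on both strands: the E-box CACGTG, the D-box TTATGTAA or TTACGTAA, and the core of the RORE, TAGGTCA. The 3 stretches that held a match are shown because they are the members' windows with a match, and capitals mark it. The Per3 stretch (chr4:151044666-151044915, minus strand) ends next to the annotated start and holds the D-box at -205 to -198 and at -158 to -151 from that start. The Cry1 stretch (chr10:85185082-85185141, minus strand) lies upstream of the annotated gene and holds an E-box at -60 to -55. The Per1 stretch (chr11:69098756-69098815, plus strand) lies within the annotated bounds of the gene and holds an E-box at -166 to -161 from the start of its window.

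Per3: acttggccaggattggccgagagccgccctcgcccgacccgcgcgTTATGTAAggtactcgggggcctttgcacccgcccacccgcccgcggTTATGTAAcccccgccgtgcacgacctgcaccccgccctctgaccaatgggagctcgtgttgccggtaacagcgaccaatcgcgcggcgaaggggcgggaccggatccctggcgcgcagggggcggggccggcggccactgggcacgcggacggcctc
Cry1: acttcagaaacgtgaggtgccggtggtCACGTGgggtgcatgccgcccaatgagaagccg
Per1: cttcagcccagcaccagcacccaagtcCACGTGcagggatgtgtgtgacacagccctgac

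No matches overlapped each other, and no RORE core was found in any window of the 9 genes. Clock, Arntl and Per1 had windows at several starts, and the other window of Per1 held no match. Of 32851 windows of the same length in the RefSeq table, 6.02% held the E-box, 0.931% the D-box and 2.23% the RORE core. A match is a description of the letters in the window, and a window without a match says nothing about binding elsewhere.

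Some libraries went against their labels or stood apart in clock transcripts. Xist, the RNA of the inactive X chromosome, was 13.7 to 51.8 TPM in all 21 ethanol-labelled libraries, where the Y-linked Eif2s3y was at most 0.0386 TPM. Of the 24 control-labelled libraries, 23 had Eif2s3y at 7.83 to 12.7 TPM and Xist at no more than 0.349 TPM, and the exception, late resolution control female 1, had Xist at 39.5 TPM. The sex-chromosome transcripts thus followed the diet label. In 22 of 45 libraries they did not match the sex label, so that a diet-label difference and a difference in sex-chromosome transcripts cannot be told apart. Without those 22 libraries no ethanol-labelled males remain (12 control males, 10 ethanol females and 1 control female do), so the comparisons could not be repeated without them. Within a diet label, libraries labelled female and male shared the same sex-chromosome transcripts, except for late resolution control female 1. Apart from that library, a sex-label difference here thus compares libraries alike in these transcripts. Whether the diet or the sex labels were crossed cannot be told. The hepatocyte genes Alb (49422 to 170591 TPM), Ttr (at least 4759 TPM) and Apoa1 (at least 7227 TPM) were abundant in every library. The labels do not say that libraries of a group come from separate mice, so a p-value here reflects only how much these libraries vary, which may be technical.

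Clock transcripts singled out 3 libraries. Peak ethanol female 3 had the highest Arntl of all libraries (10.2 TPM, with 1.47 to 2.46 TPM in the rest of its group) and the lowest Dbp (0.286 TPM, with 4.83 to 7.74 TPM in the rest). Late resolution control female 4 had Arntl at 4.95 TPM and Dbp at 0.578 TPM, against 0.59 to 1.5 TPM and 7.18 to 11.3 TPM in the rest of its group. Early resolution ethanol female 1 had Dbp at 1.72 TPM and Nr1d1 at 6.36 TPM, against 20 to 20.6 TPM and 35.7 to 36.9 TPM in the other libraries of its group. These 3 were picked on the very transcripts described here, after their values were seen. The choice departs from Dixon's test of the gap to the nearest library, given at the end. That test flagged peak ethanol female 3 but not late resolution control female 4, and it did not cover groups of 3 libraries. Other libraries it flagged, such as late resolution control male 1 (Arntl) and early resolution control female 1 (Per1), were kept. Results without the 3 picked libraries are given where they move a count of calls by more than 1.5 times, as a description and not as independent evidence.

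Among the 10 genes, Nr1d1 had the highest mean over all 45 libraries (13.7 TPM, range 2.57 to 75.0), followed by Per1 (9.24 TPM), Per2 (8.73 TPM), Nr1d2 (8.49 TPM), Per3 (6.59 TPM) and Dbp (6.27 TPM). The activators were lower, with 2.41 TPM for Arntl and 2.09 TPM for Clock, and Cry1 averaged 1.23 TPM. Npas2 had a mean of 0.0186 TPM, was above 0 in 35 of 45 libraries and reached 0.176 TPM in peak ethanol female 3. Dbp spanned 103-fold between its lowest and highest library, Arntl 41.6-fold, Nr1d1 29.2-fold and Per3 28.5-fold, while Per1, Cry1, Nr1d2 and Clock spanned 4.86-fold to 6.04-fold and Per2 7.43-fold. In bulk liver, fewer cells that express a gene and less of its RNA per cell cannot be told apart.

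Of the 9 genes tested, 8 differed somewhere among the 12 groups by the moderated F test of limma, and Per2 did not pass (adjusted p = 0.079). The same test called 74.9% of all genes, so the members' count is close to the background. The smallest adjusted p-values were those of Cry1 (1.6e-05), Clock (3.2e-05) and Nr1d1 (8.1e-05).

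**Figure D1:**
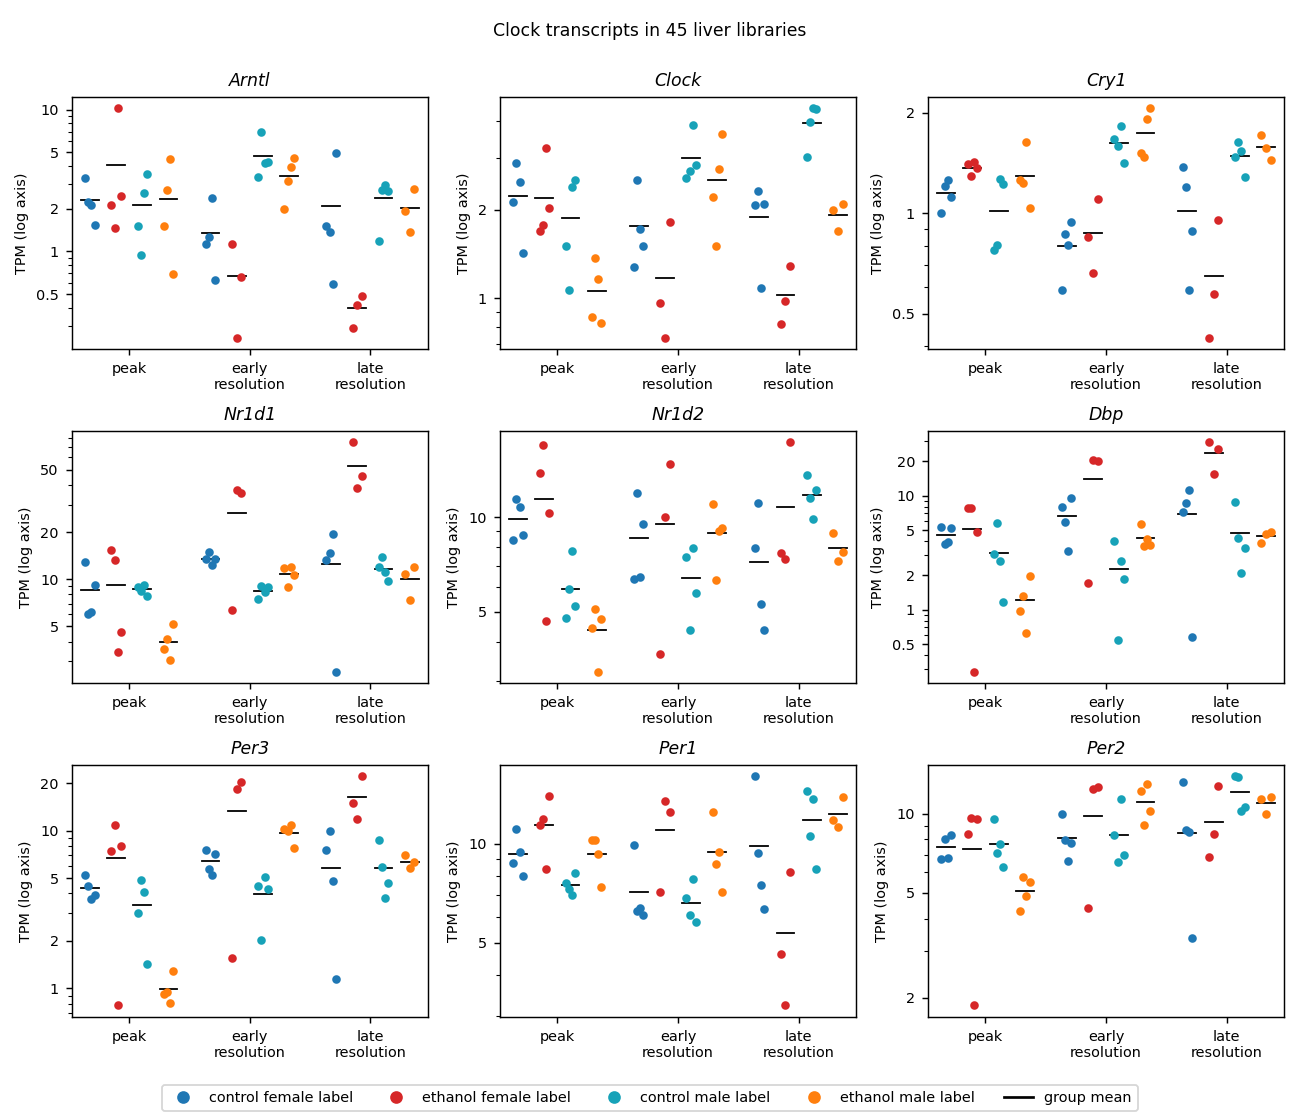
Each panel shows 1 clock gene in TPM on a log axis, with a point for each of 45 libraries, colours for diet and sex label, stages along the horizontal axis and a line at each group mean. Late resolution ethanol-labelled females sit lowest for Arntl (mean 0.396 TPM) and highest for Nr1d1 (53.1 TPM) and Dbp (23.7 TPM).

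Arntl, the obligatory activator of the loop, had its lowest group medians in female-labelled libraries at early resolution and in ethanol-labelled females at late resolution. At early resolution it was 1.12, 1.26, 2.39 and 0.624 TPM in control-labelled females and 1.12, 0.246 and 0.663 TPM in ethanol-labelled females. The male-labelled libraries of that stage had 3.35, 6.97, 4.21 and 4.25 TPM (control) and 1.99, 3.15, 3.93 and 4.52 TPM (ethanol). Within each diet label the female-labelled and male-labelled ranges did not overlap. At late resolution Arntl was 1.5, 1.36, 0.59 and 4.95 TPM in control-labelled females and 0.287, 0.418 and 0.484 TPM in ethanol-labelled females. It was 1.19, 2.7, 2.96 and 2.68 TPM in control-labelled and 1.93, 1.36 and 2.76 TPM in ethanol-labelled males. The ethanol-labelled females lay below all other libraries of that stage. At peak the 4 groups overlapped, with medians of 2.18, 2.29, 2.05 and 2.11 TPM in control females, ethanol females, control males and ethanol males.

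Clock, the partner of ARNTL, followed a similar order with a smaller range. At late resolution it was 3.02, 3.96, 4.42 and 4.41 TPM in control-labelled males, above every other library of the stage. Ethanol-labelled males had 1.99, 1.69 and 2.09 TPM, control-labelled females 2.07, 2.32, 1.08 and 2.09 TPM, and ethanol-labelled females 0.815, 0.975 and 1.29 TPM. At peak the lowest group mean was that of ethanol-labelled males (1.05 ± 0.26 TPM, SD, n = 4).

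Nr1d1, a repressor of Arntl, had its highest group mean in the group with the lowest Arntl mean. Late resolution ethanol-labelled females had 75, 38.5 and 45.8 TPM. The 11 other libraries of that stage ranged from 2.57 to 19.4 TPM (median 11.9), so the groups did not overlap. Late resolution ethanol-labelled females were set apart here as the group with the highest mean of the 12. The share of all genes that separate groups without overlap was not computed, for Nr1d1 or for the other genes described. Diet by sex label at late resolution did not pass for Nr1d1 (limma adjusted p = 0.21). In early resolution ethanol-labelled females the values were 6.36, 36.9 and 35.7 TPM, and male-labelled libraries of that stage ranged from 7.49 to 12 TPM. The lowest group was peak ethanol-labelled males with 3.59, 4.13, 3.06 and 5.18 TPM. Their mean Arntl was 2.35 TPM, near the mean of 2.41 TPM over all libraries. Early resolution control-labelled males, with the highest mean Arntl (4.69 TPM), had a mean Nr1d1 of 8.46 TPM, so the inverse order did not hold at that end. Nr1d2, the paralog of Nr1d1, showed a narrower range, from 4.37 ± 0.815 TPM (SD, n = 4) in peak ethanol-labelled males to 11.8 ± 1.58 TPM (SD, n = 4) in late resolution control-labelled males.

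Dbp, a transcription factor driven directly by the ARNTL and CLOCK pair, gave the widest spread. Late resolution ethanol-labelled females had 29.5, 15.5 and 25.9 TPM, and the 11 other libraries of the stage 0.578 to 11.3 TPM (median 4.63). Early resolution ethanol-labelled females had 1.72, 20.6 and 20 TPM, with the first library far below the other ones. In peak ethanol-labelled males Dbp was 0.975, 1.32, 0.62 and 1.97 TPM, below the 3.76 to 5.36 TPM of peak control-labelled females. The other peak groups overlapped them, with 1.18 to 5.72 TPM in control-labelled males and 0.286 to 7.74 TPM in ethanol-labelled females.

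Per3, whose promoter stretch above holds the D-box at both positions, was 0.924, 0.953, 0.808 and 1.29 TPM in peak ethanol-labelled males. The other peak groups ranged from 1.43 to 10.8 TPM apart from peak ethanol female 3 at 0.78 TPM. Per3 reached 14.9, 11.8 and 22.2 TPM in late resolution ethanol-labelled females, above the 1.15 to 9.93 TPM of the other 11 libraries. Early resolution ethanol-labelled males had 10.2, 9.92, 10.8 and 7.75 TPM, above all peak ethanol-labelled males. Their Nr1d1 (8.87 to 12 TPM) and Dbp (3.62 to 5.68 TPM) also lay above all peak ethanol-labelled males.

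Cry1, the cryptochrome repressor with an E-box in its stretch, separated the sex labels at both resolution stages. At early resolution it ranged from 0.588 to 1.1 TPM in the 7 female-labelled libraries (median 0.852) and from 1.41 to 2.06 TPM in the 8 male-labelled ones (median 1.63), without overlap. At late resolution the ranges were 0.424 to 1.38 TPM (median 0.883) and 1.28 to 1.72 TPM (median 1.54), and they overlapped only through late resolution control female 1 and a control-labelled male at 1.28 TPM. Per1, a period gene that also responds to glucocorticoid, was 4.62, 3.22 and 8.19 TPM in late resolution ethanol-labelled females and 11.8, 11.3 and 13.9 TPM in ethanol-labelled males of that stage. Per2 had group means from 5.11 ± 0.664 TPM (SD, n = 4) in peak ethanol-labelled males to 12.1 ± 2.01 TPM (SD, n = 4) in late resolution control-labelled males.

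The comparison of sex labels at early resolution showed the activators and Cry1 higher in male-labelled libraries. Differences here and below are on the log2(TPM + 0.5) scale, which understates changes of low genes, are given ± SE, and were called at a limma p under 0.05 after Benjamini-Hochberg adjustment over all genes. Arntl was higher by 1.64 ± 0.33 (adjusted p = 0.01), Clock by 0.75 ± 0.17 (adjusted p = 0.027) and Cry1 by 0.71 ± 0.11 (adjusted p = 0.00047), each in 8 of 8 male-labelled libraries. Nr1d1 (-0.77 ± 0.32, adjusted p = 0.28) and Dbp (-1.27 ± 0.48, adjusted p = 0.24) lay on the opposite side in 8 of 8 libraries but did not pass. Per3 (-0.28, 5 of 8), Nr1d2 (-0.15, 5 of 8), Per1 (-0.14, 6 of 8) and Per2 (0.16, 6 of 8) moved less and were not called. Thus 3 of 9 genes were called in a comparison that called 0.596% of all genes. The call of Arntl was lost without early resolution ethanol female 2 (adjusted p = 0.08), and that of Clock without any 1 of 7 libraries of the stage (control females 1 and 3, control males 3 and 4, ethanol female 2, ethanol males 3 and 4) (adjusted p up to 0.18), while Cry1 was called whichever library was left out. Leaving out early resolution ethanol female 1 raised the count to 5, with 1.33% of all genes called, and leaving out ethanol female 2 lowered it to 1, with 0.142% called. With all 3 libraries that stood apart left out, 6 of 9 were called against 3.9% of all genes: Arntl (1.77), Clock (0.72) and Cry1 (0.71) higher, and Dbp (-1.81), Nr1d1 (-1.18) and Per3 (-0.82) lower.

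At late resolution male-labelled libraries again had more Clock (0.80 ± 0.18, adjusted p = 0.016, 7 of 7 libraries) and Cry1 (0.65 ± 0.11, adjusted p = 0.0025, 7 of 7 libraries), and also more Per1 (0.76 ± 0.18, adjusted p = 0.02, 6 of 7 libraries). Arntl (0.91 ± 0.34, adjusted p = 0.1, 6 of 7), Nr1d1 (-1.06 ± 0.33, adjusted p = 0.06, 4 of 7) and Dbp (-1.25 ± 0.50, adjusted p = 0.12, 6 of 7) did not pass. Per3 (-0.52, 5 of 7), Nr1d2 (0.22, 4 of 7) and Per2 (0.44, 7 of 7) were not called either. That made 3 of 9 genes called, against 3.25% of all genes. Leaving out late resolution control female 4 raised the count to 6, with 8.76% of all genes called. Leaving out late resolution control female 3, ethanol female 1 or ethanol male 1 lowered it to 1, with 0.436%, 0.222% and 0.454% of all genes called. Clock (adjusted p up to 0.082) and Per1 (up to 0.085) lost their calls without any of the last 3, and Per1 also without ethanol female 2 or ethanol male 3. When the 3 libraries that stood apart were left out, 7 of 9 were called against 15.2% of all genes, with Arntl at 1.13, Dbp at -1.64, Nr1d1 at -1.36 and Per3 at -0.79. None of the 27 tested markers of other liver cell types was called between sex labels at early or late resolution. Few genes were called in all (0.596% and 3.25%), so this says little about cell composition. Both tested neutrophil markers had an unadjusted p under 0.05 at each stage, with medians of -1.16 at early and 1.14 at late resolution. At early resolution so did 2 of 6 Kupffer cell and macrophage markers and 1 of 2 B cell markers. Their part in the result was not tested.

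Between sex labels at peak, Clock had the opposite sign to both resolution stages. Per3 kept its sign, with uncalled differences of -0.28 at early and -0.52 at late resolution, where Nr1d2 was at -0.15 and 0.22. Clock (-0.50 ± 0.16, adjusted p = 0.013, 6 of 8 libraries), Nr1d2 (-0.94 ± 0.23, adjusted p = 0.0014, 8 of 8) and Per3 (-1.16 ± 0.38, adjusted p = 0.012, 7 of 8) were lower in male-labelled libraries at peak. These 3 of 9 stand against 51.0% of all genes, and the median of all genes was itself -0.29. After scaling by median of ratios, which removes that shift, Nr1d2 (-0.61, adjusted p = 0.0047) and Per3 (-0.88, adjusted p = 0.041) remained called and Clock did not (-0.24, adjusted p = 0.27), while 31.6% of all genes were called. When those 3 libraries that stood apart were left out 6 of 9 were called, against 59.3% of all genes. Of the 27 markers of other cell types 9 were called here, with 5 of 6 endothelial markers lower and both tested neutrophil markers higher in male-labelled libraries. Summed endothelial markers ranged from 85.5 to 242 TPM in female-labelled and from 46.7 to 162 TPM in male-labelled libraries, and their part in the result was not tested. The change of the sex-label difference between stages was not tested.

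**Figure D2:**
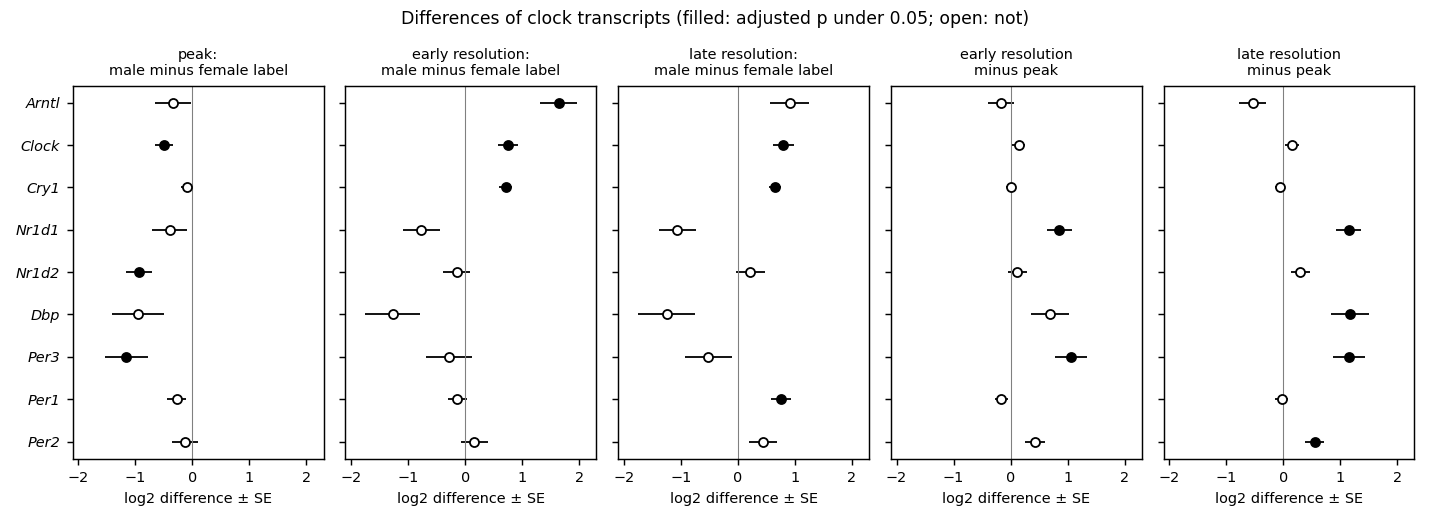
Log2 differences ± SE of 9 clock genes for the sex labels at each stage and for each resolution stage minus peak, with filled points for an adjusted p under 0.05. Arntl, Clock and Cry1 lie right of 0 between sex labels at both resolution stages, and Nr1d1, Dbp and Per3 lie right of 0 in both stage comparisons.

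Between stages, averaged over the 4 diet and sex labels, Nr1d1 and Per3 rose from peak to both resolution stages. Nr1d1 had medians of 6.98 TPM at peak (3.06 to 15.3), 11.8 TPM at early resolution (6.36 to 36.9) and 12.6 TPM at late resolution (2.57 to 75.0). Per3 had medians of 3.79 TPM (0.78 to 10.8), 7.11 TPM (1.55 to 20.3) and 6.66 TPM (1.15 to 22.2). Libraries of the stages overlapped for both genes. The 4 diet and sex labels did not share the rise of Nr1d1 evenly. From peak to early resolution, mean log2 Nr1d1 went from 3.19 to 3.16 in control-labelled males and from 3.11 to 3.81 in control-labelled females. It went from 2.14 to 3.49 in ethanol-labelled males and from 3.02 to 4.39 in ethanol-labelled females. Tests of the change of the diet-label difference between stages are given below. Both stage comparisons share the peak libraries and are not independent of each other.

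At early resolution against peak, Nr1d1 was higher by 0.85 ± 0.22 (adjusted p = 0.0056, 12 of 15 libraries) and Per3 by 1.06 ± 0.28 (adjusted p = 0.0054, 13 of 15 libraries), so 2 of 9 genes were called against 23.5% of all genes. At late resolution against peak, Nr1d1 (1.15 ± 0.22, adjusted p = 0.00069, 13 of 14 libraries), Dbp (1.17 ± 0.34, adjusted p = 0.014, 12 of 14), Per3 (1.15 ± 0.28, adjusted p = 0.0044, 13 of 14) and Per2 (0.55 ± 0.17, adjusted p = 0.02, 13 of 14) were higher, so 4 of 9 were called against 23.2%. From peak to late resolution, mean log2 Dbp went from 2.32 to 2.45 in control-labelled females and from 1.72 to 2.21 in control-labelled males. It went from 2.04 to 4.54 in ethanol-labelled females and from 0.72 to 2.3 in ethanol-labelled males. The medians of all genes were 0.12 and 0.14 in the 2 stage comparisons. With median-of-ratios scaling, which removes these shifts, Nr1d1 was higher by 0.70 and 0.98 and Per3 by 0.94 and 1.0 in the 2 comparisons, and Per1 was lower at early resolution (-0.30, adjusted p = 0.02) and Cry1 lower at late resolution (-0.19, adjusted p = 0.048). That scaling called 24.3% and 17.7% of all genes. At late resolution Dbp (1.02) and Per2 (0.38) also remained called, and Per2 lost its call without late resolution ethanol female 3 (adjusted p = 0.053). At early resolution 4 of 9 were called without early resolution ethanol female 1, against 36.4% of all genes, and again 4 without all 3 libraries that stood apart, against 35.1% of all genes. Between the resolution stages none of the 9 was called (smallest adjusted p = 0.92, none with an unadjusted p under 0.05), and limma called 0.00889% of all genes. Markers of other cell types were called for 6 of 27 at early resolution against peak, 3 higher and 3 lower, among them the neutrophil genes S100a8 (-2.16) and S100a9 (-2.13) and the B cell gene Cd79a (0.73), and for 4 of 27 at late resolution against peak, all higher. Summed neutrophil markers ranged from 3.06 to 129 TPM at peak, 0.848 to 86.1 TPM at early and 3.39 to 48.7 TPM at late resolution, and their part in the result was not tested.

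Few clock genes were called between diet labels, which also differ in sex-chromosome transcripts as described above. At peak none of 9 was called, with Cry1 alone at an unadjusted p under 0.05 (0.22 ± 0.10, adjusted p = 0.12), against 27.1% of all genes. With median-of-ratios scaling Per2 was called at peak (-0.46, adjusted p = 0.046). At early resolution Per1 was 9.92, 6.23, 6.4 and 6.09 TPM in control-labelled females and 7.16, 13.5 and 12.5 TPM in ethanol-labelled females. It was 6.84, 6.08, 7.81 and 5.77 TPM in control-labelled and 12.5, 8.71, 9.42 and 7.12 TPM in ethanol-labelled males. Per1 was higher in ethanol-labelled libraries by 0.52 ± 0.17 (adjusted p = 0.035, 7 of 7 libraries), the only call among 9, against 16.7% of all genes. The median of all genes was 0.13 there, and after median-of-ratios scaling Per1 did not pass (0.34, adjusted p = 0.085) and Clock was called instead (-0.50, adjusted p = 0.037), again against 16.7% of all genes. The call of Per1 was also lost (adjusted p up to 0.13) on leaving out any 1 of 9 early resolution libraries (control females 2, 3 and 4, control males 2 and 4, ethanol females 2 and 3, ethanol males 1 and 3), while 4 genes were called without ethanol female 1, against 26.8% of all genes, and without the 3 libraries that stood apart 6 of 9 were called against 34.3%.

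At late resolution 2 of 9 were called between diet labels, against 12.8% of all genes. Clock was lower in ethanol-labelled libraries (-0.75 ± 0.18, adjusted p = 0.0043, 6 of 6 libraries). Nr1d1 was higher (1.03 ± 0.33, adjusted p = 0.034, 4 of 6 libraries). In male-labelled libraries its control values (11.9, 13.9, 11.2 and 9.72 TPM) overlapped the ethanol values (10.8, 7.33 and 12 TPM), and the call was lost (adjusted p up to 0.11) without any 1 of 6 late resolution libraries (control female 4, control males 3 and 4, ethanol female 1, ethanol males 1 and 3). Among the markers of other cell types, 11 of 27 at peak, 12 at early and 9 at late resolution were called, all higher in ethanol-labelled libraries. Summed Kupffer cell and macrophage markers at late resolution ranged from 138 to 578 TPM in control-labelled and from 338 to 546 TPM in ethanol-labelled libraries. Their part in the clock differences was not tested.

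Whether the diet-label difference depended on the sex label or on the stage was tested as an interaction. No clock gene was called for diet by sex label at peak (0.16% of all genes), at early resolution (0.00889%) or at late resolution (0.0445%). The counts at an unadjusted p under 0.05 were 0, 0 and 4 of 9, and the largest difference was that of Nr1d1 at late resolution (-2.50 ± 0.66, adjusted p = 0.21). Without the 3 libraries that stood apart Nr1d1 (-1.30), Per2 (-0.82) and Per3 (-2.21) were called at peak, against 13.3% of all genes, and Nr1d1 (-1.91) at late resolution, against 0.0623%. The diet-label difference of Nr1d1 was larger at late resolution than at peak by 1.59 ± 0.45 (adjusted p = 0.038), the only call among 9, against 3.98% of all genes. This call was lost (adjusted p up to 0.1) on leaving out any 1 of 13 libraries: at late resolution the same 6 libraries as above, and at peak control females 1 and 4, control males 1 and 2, ethanol female 3 and ethanol males 1 and 3. The count was 3 without late resolution ethanol female 3 (9.46% of all genes called), and 2 without late resolution control female 3 (7.74%) or early resolution ethanol female 1 (7.37%). Between early resolution and peak no diet-label difference was called (0.0% of all genes, with 3 of 9 clock genes at an unadjusted p under 0.05). Without early resolution ethanol female 1 alone 3 of 9 were called for that change, against 9.53% of all genes. Without the 3 libraries that stood apart 4 of 9 were called, against 10.8% of all genes, and 2 of 9 for the change between peak and late resolution, against 2.63%.

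Clock transcripts also varied together within groups. Deviations of log2 values from their group means were correlated over 45 libraries for all 36 pairs of the 9 genes, with p-values from 100000 permutations within groups and Benjamini-Hochberg adjustment over the pairs. Of the 36 pairs 21 passed, 16 positive and 5 negative. The share that passes among pairs of other genes was not computed, so this count has no background beside it. Arntl and Dbp were opposed (r = -0.826, rho = -0.788, both raw p = 1e-05, the smallest these permutations can give, adjusted p = 0.00012). Without the 2 libraries farthest from the median of Arntl the correlation was -0.738. Dbp and Per3 moved together (r = 0.92, rho = 0.839, raw p = 1e-05, adjusted p = 0.00012, r = 0.878 without 2 libraries), as did Clock with Cry1 (r = 0.674, rho = 0.695, raw p = 1e-05 and 2e-05, adjusted p = 0.00012 and 0.00018, r = 0.674 without 2 libraries). Arntl with Clock gave r = 0.613 and rho = 0.672 (raw p = 0.00016 and 4e-05, adjusted p = 0.00072 and 0.000288, r = 0.589 without 2 libraries). All values of a library share its scaling. The correlations were not repeated with all libraries that stood apart left out.

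**Figure D3:**
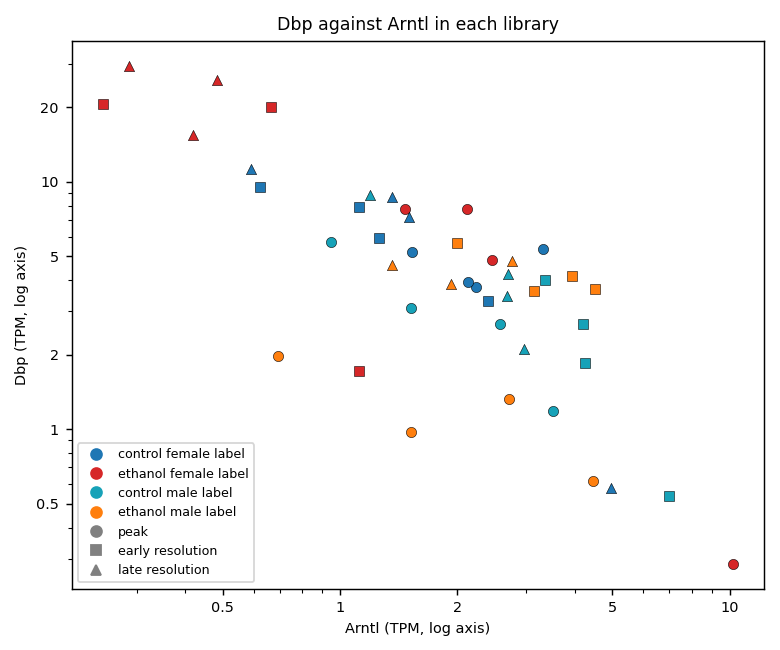
Dbp against Arntl in TPM, both on log axes, with a point per library, colours for diet and sex label and symbols for stage. Libraries run from high Dbp and low Arntl in late resolution ethanol-labelled females (Dbp 15.5 to 29.5 TPM) to low Dbp and high Arntl in peak ethanol female 3 (0.286 and 10.2 TPM), with early resolution ethanol female 1 (1.72 and 1.12 TPM) and 2 peak ethanol-labelled males (0.975 and 1.52 TPM, 1.97 and 0.694 TPM) below the rest.

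To place the libraries on 1 scale, the mean log2 value of Nr1d1, Nr1d2, Dbp and Per3 was subtracted from that of Arntl, Npas2 and Clock. High values are those of a liver near the end of the night in mice fed at night, and low values those of the day, as background. Npas2, at 0 to 0.176 TPM, lies near the added 0.5 in every library, so the first mean varies almost only with Arntl and Clock. The contrast is a description and carries no p. Group medians ranged from -1.09 in peak ethanol-labelled males to -4.76 in late resolution ethanol-labelled females, whose 3 libraries lay between -4.82 and -4.14. Peak ethanol-labelled males ranked highest through low Nr1d1, Nr1d2, Dbp and Per3, while their Clock (1.05 TPM) was the lowest of the peak groups. At early resolution the median was -4.28 in ethanol-labelled and -2.86 in control-labelled females, against -2.21 and -1.38 in the males. The ratio of Dbp to Arntl was 37.0 to 103.0 in late resolution ethanol-labelled females and 1.73 to 3.41 in ethanol-labelled males of the same stage. Library 3 of the peak ethanol-labelled females reached 0.50 on the contrast, above the -0.38 of the highest peak ethanol-labelled male.

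**Figure D4:**
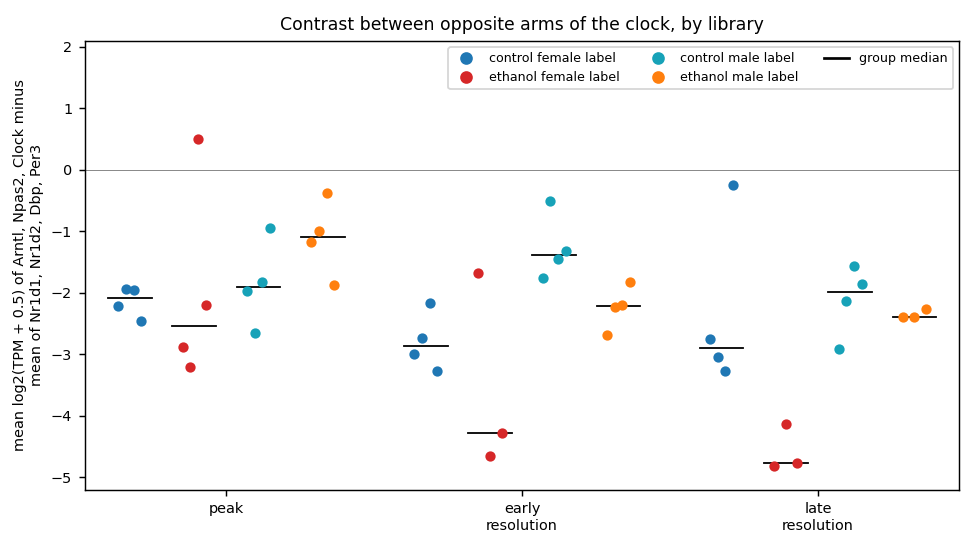
Contrast of the mean log2(TPM + 0.5) of Arntl, Npas2 and Clock minus that of Nr1d1, Nr1d2, Dbp and Per3, with a point per library, colours for diet and sex label and a line at each group median. Medians run from -1.09 in peak ethanol-labelled males to -4.76 in late resolution ethanol-labelled females, and peak ethanol female 3, early resolution ethanol female 1 and late resolution control female 4 lie above the rest of their groups.

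Collection at different hours is known to move these arms in opposite directions. Because the labels give no hour of collection, a difference in clock time between groups and an effect of diet, sex label or stage on the clock cannot be told apart.

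Beyond the 10 genes, 16 of 19 other genes of the clock loop could be tested. Between sex labels at early and late resolution none of them was called, with 3 and 5 at an unadjusted p under 0.05 and medians of 0.05 and 0.12 beside 0.03 and 0.04 for all genes. At peak 7 of 16 were called, against 51.0% of all genes, of whose calls 8.36% were higher. Of the 7, 6 were lower in male-labelled libraries and Ciart, a repressor of the ARNTL and CLOCK pair, was higher (1.07 ± 0.31, adjusted p = 0.0047, 8 of 8 libraries). Tef (-0.73) and Hlf (-0.59), which like Dbp encode factors that bind the D-box, were among the lower ones, beside a median of -0.29 for all genes. At late resolution against peak 5 of 16 were called, all higher, against 23.2% of all genes, of whose calls 91.6% were higher. They included Hlf (0.61 ± 0.15, adjusted p = 0.0047), Tef (0.53 ± 0.18, adjusted p = 0.034) and Bhlhe40 (0.66 ± 0.18, adjusted p = 0.0088), a repressor of the loop. At early resolution Ciart was higher in ethanol-labelled libraries (1.32 ± 0.32, adjusted p = 0.0036, 7 of 7 libraries), 1 of 3 calls among the 16, against 16.7% of all genes.

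Genes that respond to glucocorticoid or body temperature were followed from a list of 10. Between sex labels at late resolution 4 of 10 were called, against 3.25% of all genes. Tsc22d3 (1.58 ± 0.30, adjusted p = 0.0048) and Tat (1.46 ± 0.28, adjusted p = 0.0062), both induced by glucocorticoid, and the heat-shock gene Hspa1b (1.42 ± 0.38, adjusted p = 0.036) were higher in 7 of 7 male-labelled libraries. Cirbp, a cold-inducible RNA-binding protein, was lower (-0.64 ± 0.18, adjusted p = 0.041, 7 of 7). At early resolution 2 of 10 were called, against 0.596% of all genes, with Cirbp lower (-0.77 ± 0.17, adjusted p = 0.025, 8 of 8) and Hspa8 higher (0.50 ± 0.12, adjusted p = 0.046, 7 of 8) in male-labelled libraries. At peak 4 of 10 were called, against 51.0%, and Hspa1b was lower there (-1.0 ± 0.36, adjusted p = 0.02, 7 of 8), opposite to late resolution. Between diet labels 3, 1 and 3 of 10 were called at peak, early and late resolution, against 27.1%, 16.7% and 12.8% of all genes. At peak Tsc22d3 was lower (-1.32) and Sgk1 (1.28) and Rbm3 (0.63) were higher in ethanol-labelled libraries. The 3 called at late resolution were all lower. Of 16 rhythmic outputs of the liver, Noct, which encodes nocturnin (1.66 ± 0.29, adjusted p = 0.0025), and Lpin1 (1.58 ± 0.41, adjusted p = 0.028) were called between sex labels at late resolution, higher in 7 of 7 male-labelled libraries, and none was called at early resolution, where 3 had an unadjusted p under 0.05. At peak 8 of the 16 outputs were called, 3 higher and 5 lower, with Lpin1 higher (1.33 ± 0.38, adjusted p = 0.0042, 8 of 8). Diet labels called 4, 3 and 4 of the 16 outputs at peak, early and late resolution, beside the same shares of all genes as above.

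Of 14 genes that respond to fasting or feeding, 4 were called between sex labels at late resolution, against 3.25% of all genes, all higher in male-labelled libraries: Pck1 (1.00 ± 0.19, adjusted p = 0.005, 7 of 7 libraries) and G6pc (1.29 ± 0.30, adjusted p = 0.02, 5 of 7), both enzymes of gluconeogenesis, Igfbp1 (2.11 ± 0.49, adjusted p = 0.02, 5 of 7) and Angptl4 (0.52 ± 0.15, adjusted p = 0.042, 7 of 7). None was called at early resolution, where 2 had an unadjusted p under 0.05. At peak 8 of 14 were called, against 51.0%, 3 higher and 5 lower, and Pck1 (-0.72 ± 0.18, adjusted p = 0.0013), G6pc (-0.73 ± 0.28, adjusted p = 0.03) and Angptl4 (-0.44 ± 0.14, adjusted p = 0.0085) were lower in 8 of 8 male-labelled libraries, opposite to late resolution. At late resolution against peak 11 of 14 were called, 8 higher and 3 lower, against 23.2% of all genes, with Fasn, the fatty acid synthase, at 1.38 ± 0.24 (adjusted p = 0.00023, 14 of 14) and Pdk4, which blocks glucose oxidation, at -1.41 ± 0.28 (adjusted p = 0.0009, 11 of 14). Diet labels called 5, 2 and 3 of 14 at peak, early and late resolution, against 27.1%, 16.7% and 12.8% of all genes. Of the 5 at peak, 3 were higher in ethanol-labelled libraries, among them Pdk4 (2.29) and Igfbp1 (1.67), and 2 were lower.

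The genes outside the 10 whose log2 values were most like those of Dbp over 45 libraries were Nmnat3 (Pearson r = 0.932), Mettl27 (0.909), Zfp467 (0.907), Trim26 (0.903) and Dazap1 (0.901). Those most like Arntl were Clpx (0.777), Tars (0.734), Leo1 (0.712), Cyp4f17 (0.695) and Asap2 (0.672). Arntl itself had r = 0.665 with Clock, 0.68 with Cry1 and -0.791 with Dbp on the same measure. These correlations include differences between groups and describe likeness over libraries that share groups.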

How the data were processed

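RNA of liver lysate was sequenced in 45 libraries with a stranded mRNA kit, per the labels' protocols, on build mm10, per the submitters' processing notes. Nothing used here names the aligner, counter or annotation. Values are TPM as deposited by the authors in 1 table, from which depth cannot be read and its precision is unknown. The 26 gene names turned into dates were left out. Values were taken as log2(TPM + 0.5), and genes averaging 0.5 TPM or more were fitted by limma 3.58.1 (R 4.3.3) to 12 group means with a variance trend (33 residual and 3.8 prior degrees of freedom), with Benjamini-Hochberg adjustment over 11244 genes. The script was tested on simulated data. Diet differences are ethanol minus control, sex-label differences male minus female, and stage differences later minus earlier. A library counts in a direction against the mean of the group that has the other label or stage and otherwise the same labels. The members and gene lists were chosen with earlier results of these data known. All 10 members could be named, and at most 6 called genes of a list per comparison, in order of p. Alternatives were the pseudocount, filter, scaling, variance trend, stage alone, replicate block and leaving out libraries. Correlations and figures used Python 3.11.15, scipy 1.17.1 and matplotlib 3.10.9. Coordinates are from GENCODE M21 and RefSeq, both GRCm38.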

Additional observations from a re-analysis of the deposited data

Results flagged for a closer look

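In groups of 4 libraries, 5 of 90 sets of values of a clock gene had 1 library far from the rest, by Dixon's test of the gap to the nearest library; chance alone gives about 1 in 20. Arntl in peak ethanol female 3 was 10.2 TPM, with 1.47 to 2.46 TPM in the rest of the group. In the same library Per2 was 1.87 TPM, with 8.41 to 9.6 TPM in the rest. Arntl in late resolution control male 1 was 1.19 TPM, with 2.68 to 2.96 TPM in the rest. Per1 in early resolution control female 1 was 9.92 TPM, with 6.09 to 6.4 TPM in the rest. Npas2 in late resolution control female 2 was 0.00794 TPM, and it was listed at 0 in the other libraries of that group. The diet-label difference of Nr1d1 differed between late resolution and peak by 1.59 on the log2 scale in a test of the difference itself (adjusted p = 0.038).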

How the results depend on the processing

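No called difference of a clock gene changed direction under any alternative run. Counts of called genes moved by more than 1.5 times as follows. With a filter of a mean of at least 5 TPM, which drops Arntl, Clock and Cry1, the counts were 5 (8 before) among the 12 groups, 0 and 1 (3 and 3) for the sex labels at early and late resolution and 1 (2) for the diet label at late resolution. Without a filter the diet label gave 1 at late resolution and 0 (1) for its change from peak. With median-of-ratios scaling it gave 1 (0) at peak and 3 (1) for the change to late resolution. Quantile normalization gave 2 (1) for the diet label at early resolution, 3 (1) for its change to late resolution, 1 (3) for the sex label at peak and 5 (3) at late resolution. Fitting the stage alone gave 1 (2) for the diet label and 1 (3) for the sex label at late resolution. With the replicate number as a block, which has 15 or 16 residual degrees of freedom, the diet label gave 0 at early and late resolution and 0 for the change to late resolution. Per1 at early resolution (adjusted p = 0.09), Clock (0.06) and Nr1d1 (0.19) at late resolution and Clock between sex labels at early resolution (0.15) did not pass under the block, while Clock at late resolution passed whichever single library was left out. Same-numbered libraries correlated over 0.1 in 7 of 21 diet pairs (all 4 peak female pairs, 0.109 to 0.222, and 3 of 4 early resolution male pairs, 0.151 to 0.25) and 6 of 22 sex pairs, with medians of -0.053 and -0.0227, so pairing in those groups is possible. The block was not run for stages. Without the 3 libraries that stood apart, a choice made after seeing the data, the counts were 6 for the sex label at peak and early resolution, 7 at late resolution, 6 for the diet label at early resolution, 3 and 1 for diet by sex label at peak and late resolution, 4 for early resolution against peak, and 4 and 2 for the change of the diet difference to early and late resolution. Leaving out each library in turn gave 7 to 9 among the 12 groups, 0 to 4 and 1 to 3 for the diet label at early and late resolution, 3 to 4, 1 to 5 and 1 to 6 for the sex label at peak, early and late resolution, 2 to 4 and 3 to 5 for early and late resolution against peak, and 0 to 3 for either change of the diet difference. Depth is unknown, and Npas2 is too low to be tested.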
